A study of Mus musculus with 12 samples.

Results

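RNA sequencing measured 7 genes around tumour necrosis factor (TNF) in cells of N9, a mouse microglial line that grows without limit in culture (microglia are the macrophages of the brain). They were the cytokine gene Tnf, its receptor genes Tnfrsf1a and Tnfrsf1b, the related ligand gene Tnfsf9, and Tnfaip2, Tnfaip6 and Tnfaip8, named as proteins induced by TNF. The 7 genes were matched by symbol among the 54532 genes of the count table, and all 7 were among the 12766 genes with enough counts to be tested. They were chosen by name with earlier results of the same 12 libraries known, the differences in all 4 comparisons included. Values and adjusted p-values of the 7 are therefore a description, and no count of them is read as evidence about the TNF pathway.

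The study asked how sugar supply bears on the response of microglia to lipopolysaccharide (LPS), a bacterial cell wall component sensed by Toll-like receptor 4. There were 4 groups of 3 libraries. These were high fructose with LPS (control medium with 15 mM fructose), high glucose with LPS (control medium with 15 mM glucose), control medium with LPS, and control medium without LPS. Control medium was a glucose-free base with 5% dialyzed serum, 3 mM glucose and 5 mM fructose. Cells spent 18 h in their medium and were then seeded at 250000 per well, with LPS at 1 µg/ml for 6 h in the 3 LPS groups. No raised-sugar group went without LPS, so the change that a sugar makes in resting cells was not measured. All libraries came from 1 cell line, and the labels do not say whether the 3 libraries of a group were separate cultures. P-values therefore measure only how these libraries vary, and that variation may be technical.

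TNF is made as a membrane protein that the protease ADAM17 cuts free. Its receptor TNFR1, encoded by Tnfrsf1a, is found on most cells, carries a death domain and can lead to NF-kB activity or to cell death. TNFR2, encoded by Tnfrsf1b, lacks a death domain, is found mainly on immune and endothelial cells and responds best to TNF still held in a membrane. In microglia and other macrophages LPS switches Tnf on through NF-kB, and the short-lived Tnf transcript is held in check by proteins that bind AU-rich sequence in its 3′ untranslated region. TNF is a common readout of microglial activation.

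Total counts per library were 15453776 to 17956772. Among 11 microglia and macrophage markers, the summed level was 2065 to 2086 CPM (counts scaled to a common library size) with high fructose and LPS, 1927 to 2005 with high glucose and LPS, 2121 to 2177 in control medium with LPS and 1896 to 1967 without LPS. P2ry12 and Aif1, which mark microglia in brain tissue, were near 0, with 1 to 6 and 2 to 9 counts per library. The lymphocyte markers Cd3e and Ncr1, the endothelial marker Cldn5 and the oligodendrocyte markers Olig2 and Sox10 had no count in any library. Over all libraries the endothelial list summed to 52.0 to 71.0 CPM, the oligodendrocyte list to 27.7 to 39.3 CPM, the neuron list to 14.1 to 23.7 CPM and the fibroblast list to 0.447 to 19.8 CPM. The endothelial sum came mostly from Flt1 (816 to 1264 counts per library), the oligodendrocyte sum from Mbp (443 to 672 counts) and the neuron sum from Map2 (214 to 432 counts).

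The sequences of the Tnf, Tnfrsf1b and Tnfaip6 promoters are shown because these genes hold the largest differences among the 7 members. Each is the 250 bases before the RefSeq transcript start on GRCm38.p6, with capitals at matches to a TATA, interferon response, AP-1 or NF-kB consensus motif. Matches to the more common forms described below stay in lower case.
Tnf promoter, chr17:35202008-35202257, minus strand: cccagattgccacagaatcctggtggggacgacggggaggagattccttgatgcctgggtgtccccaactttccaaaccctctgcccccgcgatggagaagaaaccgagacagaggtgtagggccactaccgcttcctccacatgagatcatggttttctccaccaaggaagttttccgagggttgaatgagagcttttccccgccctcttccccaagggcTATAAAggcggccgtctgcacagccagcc
Tnfrsf1b promoter, chr4:145246871-145247120, minus strand: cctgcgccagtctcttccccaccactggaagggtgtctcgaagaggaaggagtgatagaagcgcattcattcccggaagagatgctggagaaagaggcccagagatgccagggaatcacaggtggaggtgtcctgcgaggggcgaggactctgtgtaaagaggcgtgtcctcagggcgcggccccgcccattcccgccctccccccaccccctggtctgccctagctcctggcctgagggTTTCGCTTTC
Tnfaip6 promoter, chr2:52037863-52038112, plus strand: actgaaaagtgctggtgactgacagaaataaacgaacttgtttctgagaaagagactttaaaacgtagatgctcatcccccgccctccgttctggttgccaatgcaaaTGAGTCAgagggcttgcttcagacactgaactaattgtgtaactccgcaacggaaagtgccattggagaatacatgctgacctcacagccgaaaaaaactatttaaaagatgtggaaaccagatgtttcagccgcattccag
The capitals in Tnf are a TATA box, TATAAA, at bases -29 to -24 from the start, a motif in 13.6% of the 32851 promoter windows of the table. Those in Tnfrsf1b are an interferon response form, GAAA, 2 any bases and GAAA, read on the other strand at bases -10 to -1 and present in 3.44% of windows. Those in Tnfaip6 are an AP-1 form, TGANTCA, at bases -142 to -136 and present in 7.81% of windows. The Ensembl gene counted for Tnfaip6 begins at base 52038009, before that RefSeq start. The end of its printed sequence thus lies inside the counted gene. Each window ran from 250 bases before the start to 50 after it and was read on both strands, and none of these 3 matches overlapped another motif searched. The named NF-kB consensus, present in 4.51% of windows, was in none of the 5 members' windows that the table held, which also included Tnfrsf1a and Tnfaip2. A looser NF-kB form, GGG, 5 any bases and CC, was in all 5 and in 50.8% of all windows. PU.1 GAGGAA, in 28.3% of windows, was in those of Tnf and Tnfrsf1b, while CRE TGACGTCA (1.79%) and C/EBP TTGCNNAA (10.8%) were in none of the 5. A match is a string of letters, not a measured binding site.

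The Tnf transcript also carries AU-rich sequence of the kind that tristetraprolin and AUF1, described below, bind, shown here as the 30 bases with the most ATTTA pentamers, at bases 437 to 466 of its 3′ untranslated region (GENCODE M21, GRCm38).
Tnf AU-rich site: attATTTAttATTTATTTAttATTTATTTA
The capitals mark 5 copies of ATTTA, of which adjoining copies share a base. The whole 764-base region held 8 copies, and 8.93% of 11232 genes had at least as many. It held 5 copies of TTATTTATT, which may overlap, and 0.0801% of those genes had at least as many. The other members had 6 copies of ATTTA in 715 bases (Tnfaip6), 3 in 1017 (Tnfaip8), 2 in 2324 (Tnfrsf1b), 2 in 1116 (Tnfaip2), 2 in 253 (Tnfsf9) and 0 in 490 (Tnfrsf1a). This search was added after the expression values were seen.

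LPS in control medium raised Tnf and Tnfrsf1b most among the 7 genes, raised Tnfaip2 and Tnfaip8 less, and left Tnfrsf1a, Tnfaip6 and Tnfsf9 without a call. A call is an adjusted p below 0.05 in edgeR's quasi-likelihood test with Benjamini-Hochberg adjustment over all 12766 genes, and every adjusted p below comes from that test. There were 4 members called of 7, and all 4 were higher. Over all genes tested, 28.8% were called, 15.2% higher and 13.6% lower. In genes these were 1941 and 1736, against 1622 and 2292 under upper-quartile scaling and 1412 and 2951 with library totals alone, and the 4 member calls stayed under each. The median log2 difference was 0.27 over the members and -0.00399 over all genes. In a culture, fewer responding cells and less RNA per cell cannot be told apart.

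Tnf (ENSMUSG00000024401, chr17:35199381-35202007, minus strand) had 225, 225 and 233 CPM in the libraries with LPS, against 14.0, 15.6 and 17.1 CPM without LPS. These came from 3630 to 3904 counts and from 245 to 322 counts, and the groups lay far apart. The log2 difference was 3.87 ± 0.07 (SE), with an adjusted p of 3.71e-17. Means were 228 ± 4.52 CPM with LPS and 15.6 ± 1.54 CPM without (SD, n = 3 each), a ratio of 14.6. The other ligand gene was Tnfsf9 (ENSMUSG00000035678, chr17:57105325-57107757, plus strand), whose product binds CD137, a receptor known from T cells. Tnfsf9 had 9.19, 5.67 and 8.36 CPM with LPS, against 9.97, 10.6 and 8.83 CPM without. Its groups overlapped, and the difference of -0.34 ± 0.21 had an adjusted p of 0.254. Tnfsf9 overlaps an antisense gene, Gm11110, over 14.9% of its exonic bases. That gene had 20 to 76 counts per library, and without a stated strand setting reads of the pair cannot be told apart.

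The receptors differed from each other. Tnfrsf1b (ENSMUSG00000028599, chr4:145213463-145246870, minus strand) had 459, 478 and 462 CPM with LPS, against 56.9, 54.9 and 57.4 CPM without. The groups were far apart, and the log2 difference was 3.05 ± 0.05 with an adjusted p of 1.48e-17. Tnfrsf1a (ENSMUSG00000030341, chr6:125349362-125362484, plus strand) had 150, 146 and 133 CPM with LPS, against 128, 136 and 133 CPM without. Its groups overlapped, and the difference was 0.11 ± 0.06 with an adjusted p of 0.196.

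The genes named for induction by TNF did not move as a block. Tnfaip2 (ENSMUSG00000021281, chr12:111442469-111455018, plus strand), also called M-Sec and known for forming membrane nanotubes between cells, had 197, 191 and 181 CPM with LPS, against 96.4, 94.7 and 98.4 CPM without. The groups did not overlap, and the log2 difference was 0.98 ± 0.05 with an adjusted p of 3.08e-11. Tnfaip8, a lipid-binding protein known for restraining apoptosis, had 88.0, 83.8 and 84.9 CPM with LPS, against 71.8, 69.9 and 70.7 CPM without. Again the groups did not overlap, and the difference was 0.27 ± 0.06 with an adjusted p of 0.00133. Tnfaip6 (ENSMUSG00000053475, chr2:52038009-52056686, plus strand), a secreted protein that binds hyaluronan, had only 13, 17 and 21 counts with LPS, against 21, 27 and 14 counts without. Its groups overlapped at 1.03 ± 0.224 and 1.15 ± 0.385 CPM, and the difference of -0.16 ± 0.37 had an adjusted p of 0.794. None of the 7 genes matched a transcript of another GENCODE M21 gene at 98% identity or more over at least 75 bases. Shorter or less similar matches were not counted. The genes antisense to Tnfaip2 and Tnfaip8 had at most 2 counts in any library.

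**Figure D1:**
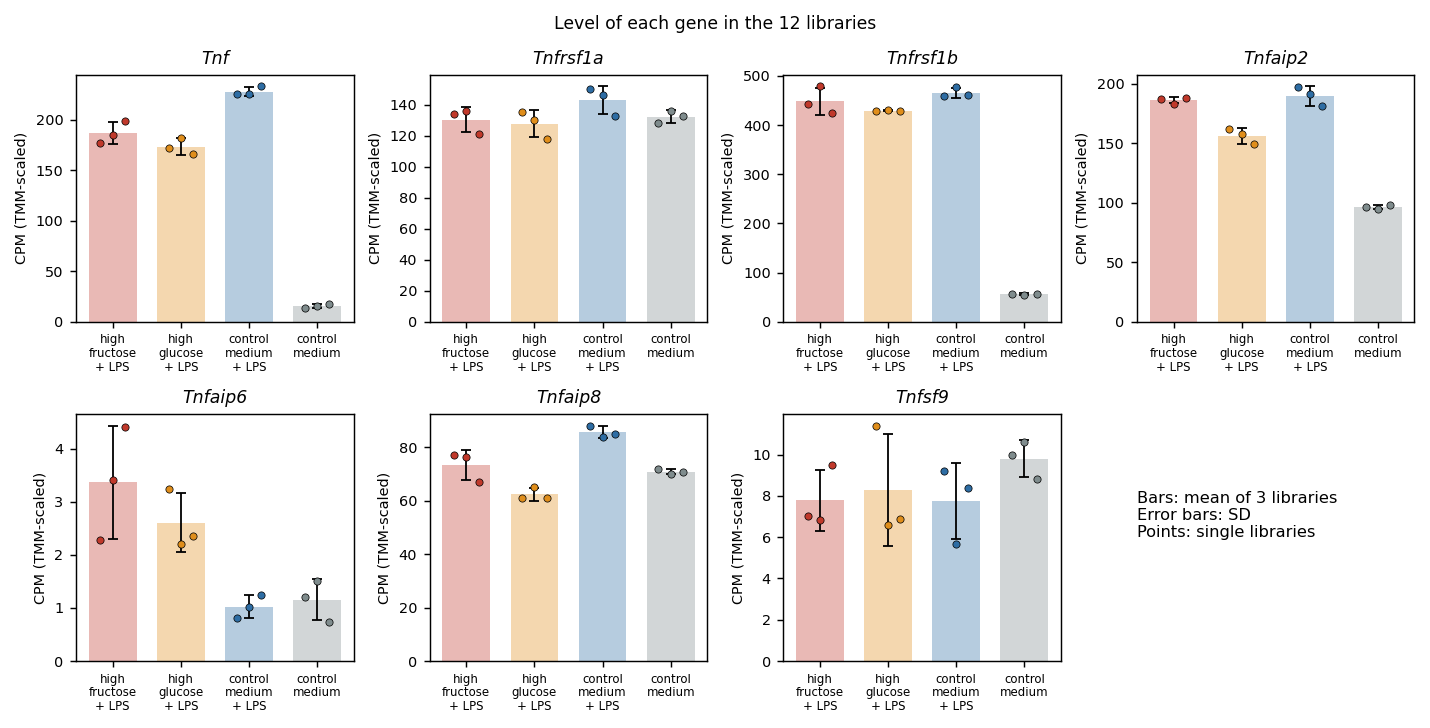
Level of each of the 7 genes in CPM, with TMM-scaled library sizes. Bars are means of 3 libraries, error bars are SD and points are single libraries, with the groups in the order high fructose with LPS, high glucose with LPS, control medium with LPS and control medium. Tnf and Tnfrsf1b are high in all 9 LPS libraries, while Tnfaip6 is highest in the 6 raised-sugar libraries and stays under 5 CPM.

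High glucose lowered Tnf, Tnfaip2 and Tnfaip8 in LPS-treated cells, by less than a fold of 1.5 each. There were 3 members called of 7, and all 3 were lower. Over all genes tested, 1.56% were called, 0.587% higher and 0.971% lower. That share comes from 199 genes, which became 67 to 74 without LPS replicate 1, 2 or 3 or high-glucose replicate 3, and 427 (223 higher and 204 lower) with no filter on low counts. The median log2 difference was -0.16 over the members and 0.00273 over all genes.

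Tnf had 172, 182 and 166 CPM with high glucose and LPS, against 225, 225 and 233 CPM in control medium with LPS. Every high-glucose library lay below every control-medium LPS library, and all 3 lay above the libraries without LPS. The log2 difference was -0.40 ± 0.06, with a 95% interval of -0.518 to -0.271 and an adjusted p of 0.00202. Means were 173 ± 7.97 CPM with high glucose and 228 ± 4.52 CPM in control medium with LPS (SD, n = 3 each). Tnfsf9 had 11.4, 6.57 and 6.88 CPM with high glucose, against 9.19, 5.67 and 8.36 CPM, and its groups overlapped (difference 0.10 ± 0.21, adjusted p = 0.895).

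Neither receptor was called. Tnfrsf1b had 428, 430 and 429 CPM with high glucose, against 459, 478 and 462 CPM in control medium with LPS. The high-glucose libraries were all lower, but the difference of -0.12 had an adjusted p of 0.244. Tnfrsf1a had 135, 130 and 118 CPM with high glucose, against 150, 146 and 133 CPM, with overlapping groups and a difference of -0.16 (adjusted p = 0.246).

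Tnfaip8 had 61.0, 65.1 and 60.9 CPM with high glucose, against 88.0, 83.8 and 84.9 CPM in control medium with LPS. The groups did not overlap, and the high-glucose libraries were also below the 69.9 to 71.8 CPM of cells without LPS. The log2 difference was -0.46 ± 0.06 with an adjusted p of 0.00063. Tnfaip2 had 162, 158 and 149 CPM with high glucose, against 197, 191 and 181 CPM, again with no overlap. Its difference of -0.28 ± 0.05 had an adjusted p of 0.00663, which became 0.0524 without LPS replicate 1 and 0.0512 without high-glucose replicate 3. Tnfaip6 had 53, 36 and 37 counts with high glucose, against 13, 17 and 21 counts. All 3 high-glucose libraries were higher, at 2.6 ± 0.558 CPM against 1.03 ± 0.224 CPM, but the difference of 1.34 ± 0.34 (95% interval 0.617 to 2.06) had an adjusted p of 0.0621. It passed the threshold when no filter on low counts was used, with an adjusted p of 0.00761. Leaving out any 1 of the 6 libraries kept it uncalled (adjusted p = 0.0747 to 0.223).

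High fructose lowered Tnf and Tnfaip8 and raised Tnfaip6 in LPS-treated cells. There were 3 members called of 7, with 1 higher and 2 lower. Over all genes tested, 4.91% were called, 2.37% higher and 2.55% lower. The median log2 difference was -0.06 over the members and -0.00127 over all genes. This comparison and that of high glucose share the 3 control-medium LPS libraries, so their values are not independent.

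Tnf had 177, 185 and 199 CPM with high fructose and LPS, against 225, 225 and 233 CPM in control medium with LPS. All high-fructose libraries were lower. The log2 difference was -0.29 ± 0.06, with a 95% interval of -0.408 to -0.162 and an adjusted p of 0.00571. Relative to cells without LPS, the mean Tnf level was 12 times as high with high fructose and LPS, 11.1 times with high glucose and LPS and 14.6 times with LPS in control medium. Tnfsf9 had 7.03, 6.82 and 9.47 CPM with high fructose, against 9.19, 5.67 and 8.36 CPM, with overlap and a difference of 0.01 (adjusted p = 0.996).

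The receptors again showed no call. Tnfrsf1b had 442, 479 and 424 CPM with high fructose, against 459, 478 and 462 CPM in control medium with LPS, and the groups overlapped (difference -0.06, adjusted p = 0.648). Tnfrsf1a had 134, 136 and 121 CPM with high fructose, against 150, 146 and 133 CPM. Those groups overlapped too, with a difference of -0.13 and an adjusted p of 0.309.

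Tnfaip6 had 37, 55 and 67 counts with high fructose, against 13, 17 and 21 counts in control medium with LPS. All 3 high-fructose libraries were higher, at 3.37 ± 1.06 CPM against 1.03 ± 0.224 CPM (SD, n = 3 each). The log2 difference was 1.70 ± 0.34, with a 95% interval of 0.995 to 2.41 and an adjusted p of 0.00431. The level stayed low beside the other members, and it was set by at most 67 counts in a library. Tnfaip2 had 187, 183 and 188 CPM with high fructose, against 197, 191 and 181 CPM, with overlapping groups and a difference of -0.03 (adjusted p = 0.858).

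Tnfaip8 had 77.0, 76.2 and 66.9 CPM with high fructose, against 88.0, 83.8 and 84.9 CPM in control medium with LPS. All 3 high-fructose libraries were lower, and the difference of -0.22 ± 0.06 had an adjusted p of 0.032. The call was lost when LPS replicate 1, 2 or 3 was left out (adjusted p = 0.132, 0.0722 and 0.0778) and without high-fructose replicate 3 (adjusted p = 0.163, difference -0.16). With only the 2 groups in the model the adjusted p was 0.0658.

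**Figure D2:**
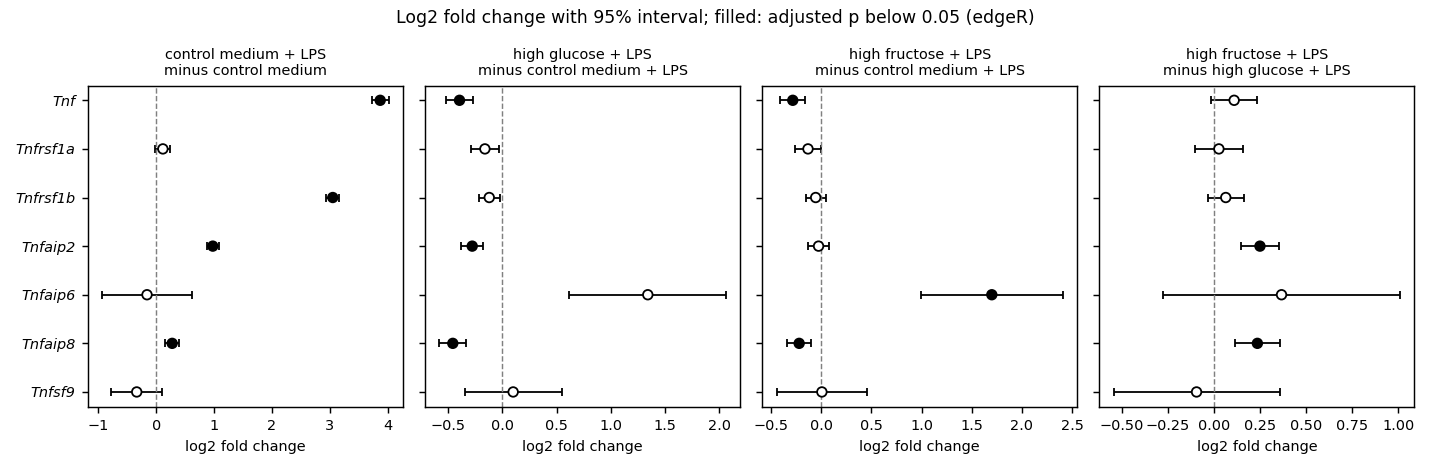
Log2 fold change of the 7 genes in the 4 comparisons, with the 95% interval of each. Filled points passed an adjusted p below 0.05 in edgeR, and the horizontal scale differs between panels. Tnf lies at 3.87 for LPS and at -0.40 and -0.29 for the 2 sugars, and the widest intervals are those of Tnfaip6 and Tnfsf9, the members with the lowest counts.

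Fructose and glucose, which differ as a ketose and an aldose of the same formula, were compared directly at the same labelled concentration, time and LPS exposure. The labels do not say whether 15 mM is a final or an added concentration. Since control medium holds unequal amounts of the sugars, either the final levels or the increments differ between the groups. Tnfaip2 and Tnfaip8 were higher with fructose, and the other 5 genes were not called. There were 2 members called of 7, and both were higher. Over all genes tested, 3.72% were called, 1.84% higher and 1.88% lower. The median log2 difference was 0.11 over the members and -0.00182 over all genes.

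Tnfaip2 had 187, 183 and 188 CPM with high fructose, against 162, 158 and 149 CPM with high glucose. The groups did not overlap, and the log2 difference was 0.25 ± 0.05 with an adjusted p of 0.00574. Tnfaip8 had 77.0, 76.2 and 66.9 CPM with high fructose, against 61.0, 65.1 and 60.9 CPM with high glucose. These groups did not overlap either, though the lowest high-fructose library was close to the highest high-glucose library. The difference of 0.24 ± 0.06 had an adjusted p of 0.0301. It was not past the threshold without high-glucose replicate 1 or 3 (adjusted p = 0.0962 and 0.115), without high-fructose replicate 1 or 2 (adjusted p = 0.126 and 0.116), or with only the 2 groups in the model (adjusted p = 0.138).

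For Tnf the difference between the sugars was 0.11, with a 95% interval of -0.0142 to 0.233 and an adjusted p of 0.394. The 177 to 199 CPM of the high-fructose libraries overlapped the 166 to 182 CPM of the high-glucose libraries. For Tnfaip6 the difference was 0.37, with an interval of -0.275 to 1.01 and an adjusted p of 0.628. The counts of 37, 55 and 67 with fructose overlapped those of 53, 36 and 37 with glucose. The differences were 0.03 for Tnfrsf1a, 0.06 for Tnfrsf1b and -0.09 for Tnfsf9, with adjusted p-values of 0.889, 0.564 and 0.889. A p that misses the threshold does not show that the sugars act alike on these genes.

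Levels were compared between genes on the FPKM scale, fragments per kilobase of gene length, scaled to library size, as deposited. With high fructose and LPS the order was Tnfrsf1b (117) and Tnf (113), which overlapped, then Tnfrsf1a (50), Tnfaip2 (37.1), Tnfaip8 (7.06) and Tnfsf9 (5.99), which overlapped, and Tnfaip6 (1.96). With high glucose and LPS it was Tnfrsf1b (112), Tnf (105), Tnfrsf1a (49.0), Tnfaip2 (31.2), Tnfsf9 (6.37) and Tnfaip8 (5.99), of which only the last pair overlapped, and Tnfaip6 (1.51). In control medium with LPS Tnf came first at 138, ahead of Tnfrsf1b (122), Tnfrsf1a (55.0), Tnfaip2 (37.9), Tnfaip8 (8.25), Tnfsf9 (5.97) and Tnfaip6 (0.597), with no overlap between neighbours. Without LPS Tnfrsf1a came first at 50.8, ahead of Tnfaip2 (19.3), Tnfrsf1b (14.7), Tnf (9.46), Tnfsf9 (7.55) and Tnfaip8 (6.82), which overlapped, and Tnfaip6 (0.671).

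The receptor ratio changed with LPS. Within each library, Tnfrsf1b FPKM divided by Tnfrsf1a FPKM was 2.08, 2.22 and 2.35 in control medium with LPS, against 0.302, 0.274 and 0.293 without LPS. The TNFR2 transcript was thus above the TNFR1 transcript in all LPS libraries and below it in all libraries without LPS. The ratio was 2.24, 2.39 and 2.38 with high fructose and LPS and 2.15, 2.24 and 2.46 with high glucose and LPS, both overlapping control medium with LPS. The deposited gene length enters FPKM, and that of Tnfaip8 was 10328 bases, against 1921 for its main coding transcript, so its place in the order rests on that length. The lengths also differed for Tnfaip2 (4984 against 3284 bases) and Tnfrsf1a (2591 against 2156 bases). Their levels, and the size of the receptor ratio, thus depend on the length used too.

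**Figure D3:**
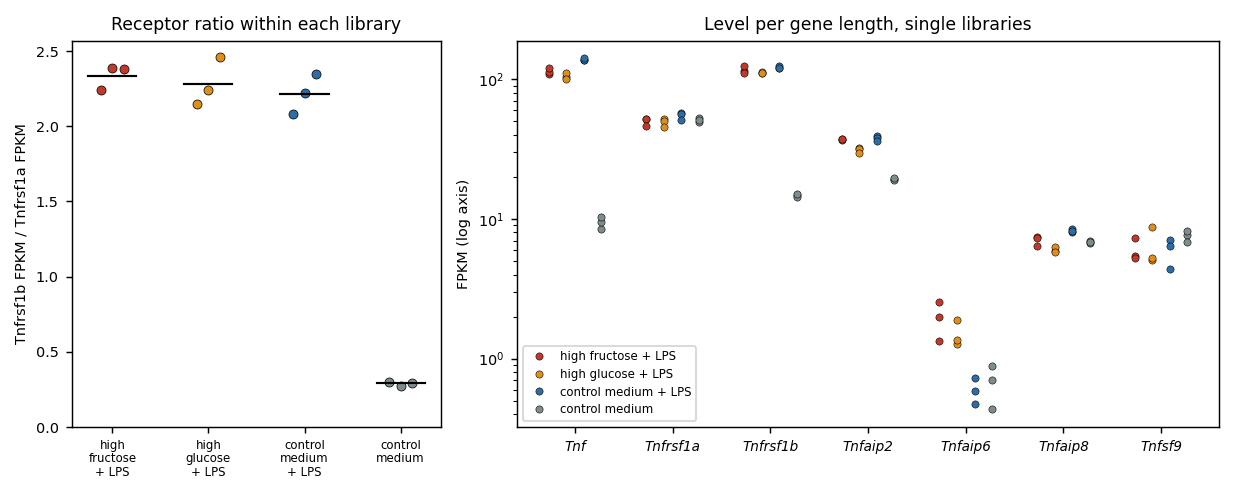
Left, Tnfrsf1b FPKM divided by Tnfrsf1a FPKM in each library, with a line at the group mean. Right, FPKM of the 7 genes in single libraries on a log axis. The ratio lies between 2.08 and 2.46 in the 9 LPS libraries and between 0.274 and 0.302 without LPS.

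Other genes of the pathway were read from 8 lists that hold 104 genes, of which 79 were tested. LPS in control medium raised 35 of the 79 and lowered 8. High glucose raised none and lowered 1, high fructose raised 3 and lowered 5, and high fructose against high glucose raised 1 and lowered 3. The shares called were 54.4% for LPS, 1.27% for high glucose, 10.1% for high fructose and 5.06% between the sugars, beside 28.8%, 1.56%, 4.91% and 3.72% of all genes tested. At an unadjusted p below 0.05 the counts were 50, 21, 20 and 22 of the 79 in the same order, or 63.3%, 26.6%, 25.3% and 27.8%, beside 37.9%, 13.9%, 15.5% and 15.6% of all genes. DESeq2 called 44, 4, 8 and 4. The lists were chosen with earlier results known, and nothing particular to them is read from these shares.

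Among ligands and receptors, LPS raised 3 of 6 tested ligands and lowered none. Tnfsf10, the death ligand TRAIL, was at 6.85 CPM with LPS, against 0.276 CPM without, on 98 to 127 and 2 to 7 counts. The log2 difference was 4.59 ± 0.30, and it ran from 4.22 to 4.87 with a library left out. Tnfsf13b, the B-cell survival factor BAFF, differed by 0.25. Tnfsf14 (LIGHT) differed by 1.02, with an adjusted p of 0.028 that became 0.0818 to 0.116 without control replicate 2 or 3 or LPS replicate 1 or 3. Of 14 tested receptors, 6 rose and 1 fell. Those with the smallest adjusted p were Fas (2.77), a death receptor, Cd40 (2.46), a costimulatory receptor, Tnfrsf9 (3.07), which encodes CD137, and Tnfrsf8 (1.57), which encodes CD30. Tnfrsf9, the receptor of Tnfsf9, thus rose to 3.47 CPM with LPS, against 0.41 CPM without, on 54 to 60 and 5 to 10 counts.

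In the receptor signalling complex LPS raised 7 of 20 genes and lowered 3. The smallest adjusted p-values were those of Traf1 (log2 difference 3.90 ± 0.14), an adaptor of TNFR2, Rnf31 (0.75), part of the linear ubiquitin ligase, Birc3 (0.81), another ubiquitin ligase, and Ikbkb (0.38), a kinase that frees NF-kB. Of 7 cell death genes 4 rose and 2 fell. Cflar (0.84), which restrains caspase-8, and Bid (0.59) and Mlkl (0.82), which carry death signals, rose, while Ripk3 (-0.53), the kinase that activates MLKL, fell.

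Of 9 deubiquitinases and A20 partners 5 rose and none fell, among them Tnfaip3 (2.33 ± 0.06), which encodes A20, Tnip1 (1.42) and Tnip3 (1.34). Tax1bp1 (0.19) was called too, but not without LPS replicate 1 (adjusted p = 0.0519) or with library totals alone as the scale (adjusted p = 0.149). Of 12 genes listed for control of the Tnf transcript 6 rose and none fell. Zc3h12a (3.56 ± 0.07), an RNase, and Zfp36 (0.52), tristetraprolin, which binds the AU-rich site printed above, rose together with the kinase genes Mapkapk2 (1.16) and Map3k8 (1.83).

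Of 8 shedding genes LPS raised 4 and lowered 2. Rhbdf2 (1.25), which carries ADAM17 to the cell surface, Sppl2a (0.42), which cuts the stub that shedding leaves, and Furin (0.46), which matures ADAM17, rose, and the related protease gene Adam10 (-0.37) fell. Adam17 itself was at 259 CPM with LPS, against 227 CPM without, a difference of 0.19 with an adjusted p of 0.00685 that became 0.134 with library totals alone as the scale. The remaining list, 3 tested TNFAIP-named genes, had no call, none at an unadjusted p below 0.05 and none by DESeq2.

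With high glucose 1 listed gene was called, Tnfsf13b, at 39.2 CPM with high glucose and LPS, against 49.6 CPM in control medium with LPS. Its log2 difference of -0.34 had an adjusted p of 0.00794, which became 0.0605 without LPS replicate 3 and 0.0512 without high-glucose replicate 3. Tnfaip3 (-0.20, adjusted p = 0.0922) and Zfp36 (0.19, adjusted p = 0.0924) were not called, nor was Zc3h12a, at 79.5 CPM in both groups (adjusted p = 0.996). From the same lists, Cyld (-0.25, adjusted p = 0.0603) and Hnrnpd (0.195, adjusted p = 0.0652) lay nearer the threshold, also without a call. DESeq2 called 2 of the deubiquitinases and A20 partners and 1 gene listed for control of the Tnf transcript. Tnfrsf9 differed by 0.34 (adjusted p = 0.577), and Adam17 was at 259 CPM in both groups (adjusted p = 0.988).

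With high fructose Tnfsf10 had 57, 39 and 38 counts, against 127, 114 and 98 counts in control medium with LPS. The groups did not overlap, the log2 difference was -1.28 ± 0.22 and the adjusted p was 0.00119. Of 7 cell death genes 3 fell, namely Mlkl (-0.31, adjusted p = 0.00694), Bid (-0.20, adjusted p = 0.0155) and Casp8 (-0.23, adjusted p = 0.0376), and none rose. Tnfsf10 and Mlkl were called under each of the 14 alternatives run. Bid was lost without LPS replicate 1 or 2 or high-fructose replicate 3 (adjusted p = 0.0576 to 0.087), and Casp8 without LPS replicate 1, 2 or 3 or high-fructose replicate 2 or 3 (adjusted p = 0.0749 to 0.153).

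Other calls with high fructose were Tnfsf14 (1.08), Tnfrsf4 (2.50), which encodes OX40 and had 1 to 19 counts per library, Cd40 (-0.67) and Traf1 (0.36), with adjusted p-values of 0.0357, 0.0121, 0.0313 and 0.0468. Each was lost without some libraries. Tnfsf14 went to 0.0504 to 0.181 without any 1 of the 6 libraries and to 0.0608 with only the 2 groups. Tnfrsf4 went to 0.0597 to 0.0892 without LPS replicate 2 or 3 or high-fructose replicate 1 (DESeq2 gave it no adjusted p), Cd40 to 0.1 to 0.156 without LPS replicate 1 or 2 or high-fructose replicate 2 or 3, and Traf1 to 0.126 to 0.171 without LPS replicate 1, 2 or 3 or high-fructose replicate 1 or 3. Traf1 also lost its call under upper-quartile scaling (0.0507) and with library totals alone (0.0525). Tnfrsf9 (0.10, adjusted p = 0.914) and Adam17 (-0.11, adjusted p = 0.28) were not called.

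Between the sugars, Tnfsf10 was lower with fructose than with glucose (-0.91, adjusted p = 0.0261), as were Zfp36 (-0.23, adjusted p = 0.0216) and Hnrnpd (-0.22, adjusted p = 0.0181), which encodes the AU-rich RNA binder AUF1, and Tnfrsf11a, which encodes RANK, was higher (0.30, adjusted p = 0.0301). Zfp36 was at 68.5 CPM with high fructose, 80 CPM with high glucose and 70.2 CPM in control medium with LPS. Hnrnpd was at 151, 176 and 154 CPM in the same order. Leaving out some single libraries ended each of these 4 calls. Adjusted p-values became 0.0715 to 0.104 for Tnfsf10 without high-glucose replicate 2 or 3 or high-fructose replicate 2 or 3. They became 0.0664 to 0.0966 for Zfp36 without high-glucose replicate 1 or 3 or high-fructose replicate 1 or 2. They became 0.0521 to 0.0784 for Hnrnpd without high-glucose replicate 2 or 3 or high-fructose replicate 1 or 2, and 0.051 to 0.141 for Tnfrsf11a without any 1 library except high-glucose replicate 3. With only the 2 groups in the model all 4 calls were lost (adjusted p = 0.0559 to 0.115). Tnfrsf9 (-0.24, adjusted p = 0.686) and Adam17 (-0.11, adjusted p = 0.297) were not called.

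**Figure D4:**
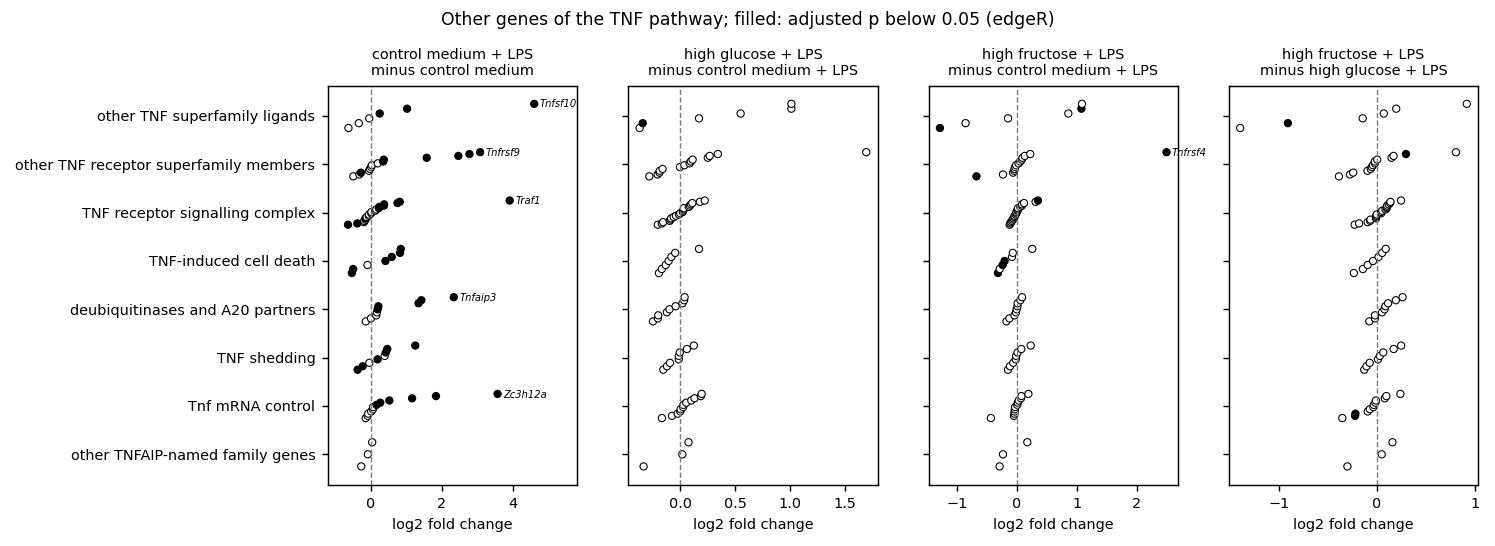
Log2 fold change of the 79 tested genes of 8 TNF pathway lists in the 4 comparisons, 1 point per gene, with filled points called at an adjusted p below 0.05 in edgeR. The horizontal scale differs between panels. LPS moved 43 of the 79 genes past the threshold, with Tnfsf10 at 4.59 and Traf1 at 3.90, and the 3 sugar comparisons 1, 8 and 4.

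Some markers of cell identity moved beside these results. Of 9 tested microglia and macrophage markers, Csf1r was the one called with either sugar. Csf1r, a receptor that microglia need to survive, was at 386 CPM with high glucose and at 410 CPM with high fructose, against 472 CPM in control medium with LPS (log2 differences -0.29 and -0.20, adjusted p = 0.00165 and 0.0062). The largest shift among the 9 was that of Cx3cr1, which was not called and had 15 to 68 counts per library. It differed by -1.29 with high glucose and by -0.56 with high fructose (adjusted p = 0.0536 and 0.401). Cd68, a lysosomal marker, differed by -0.05 with high glucose and 0.00108 with high fructose, and Spi1, which encodes the factor PU.1, by -0.05 and 0.06 (adjusted p = 0.728 to 0.997). With LPS in control medium Spi1 was 0.58 higher (adjusted p = 7.02e-07), Csf1r 0.15 and Ptprc 0.23 higher (adjusted p = 0.011 and 0.0218) and Adgre1 lower (-0.23, adjusted p = 0.00125). Markers of other cell types that were lower with LPS were Mbp (-0.35, adjusted p = 0.00251), Flt1 (-0.35, adjusted p = 0.000777), Map2 (-0.42, adjusted p = 0.0132) and Aldh1l1 (-0.30, adjusted p = 0.0108), and Gja1 (0.17, adjusted p = 0.0401), Cdh5 (1.51, adjusted p = 0.0397) and Kdr (2.24, adjusted p = 0.0073) were higher, the last pair on at most 26 counts. The summed astrocyte list was 114 to 118 CPM with high fructose and LPS, 95.5 to 111 CPM with high glucose and LPS and 94.1 to 103 CPM in control medium with LPS, against 94.7 to 97.5 CPM without LPS. Of its 6 genes only Gja1 and Aldh1l1 had more than 21 counts in any library, and Gfap had 0 to 10. Gja1 was 0.30 higher with high fructose (adjusted p = 0.00493). Their part in the differences of the 7 genes was not tested.

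Genes whose pattern was most like that of Tnf were found among the 9890 tested coding genes that averaged 50 counts or more. By the root mean square difference of log2 CPM, each gene centred on its own mean over the 12 libraries, they were Zc3h12a (0.171), Xaf1 (0.244), Cdc42ep2 (0.254), Slfn5 (0.266) and Nfkbiz (0.287), beside an SD of 1.65 for Tnf itself. This measure is carried by the LPS step, whose log2 size was 3.56 to 3.82 in these 5 genes, and they did not all follow Tnf with the sugars. With high fructose Nfkbiz was 0.31 higher (adjusted p = 0.0392), while Xaf1 and Slfn5 were lower (-0.68 each, adjusted p = 0.000248 and 2.61e-06). Zc3h12a differed by 0.00132 with high glucose (adjusted p = 0.996). Over the 9 LPS libraries alone genes with a high Pearson r to Tnf included Fam120c (0.976) and Rasgrp3 (0.943), and 26 genes were over 0.9. These r values describe 9 libraries that share their groups, and they carry no test. They leave out the LPS step, which was -0.07 in Fam120c (adjusted p = 0.819) and -1.30 in Rasgrp3 (adjusted p = 5.97e-13), against 3.87 in Tnf.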

How the data were processed

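RNA was sequenced from 12 libraries of N9 cells in 4 groups of 3, grouped by the labels. The deposited counts are raw reads for each Ensembl gene, and the submitters' processing notes name featureCounts 1.5.0-p3 and mm10. FPKM values were deposited too, each equal to the count divided by gene length and by a constant per library (largest deviation 8.73e-08% over 7860 genes with at least 200 counts). For the aligner and the strand setting, nothing was given in the sources used here. Library totals of 15453776 to 17956772 counts leave counting error largest for Tnfaip6, at 13 to 67 counts.

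Counts were fitted with edgeR 4.0.16 in R 4.3.3. The steps were filterByExpr (12766 genes kept), trimmed mean of M-values (TMM) scaling, 1 quasi-likelihood model of all 12 libraries with a coefficient per group, and Benjamini-Hochberg adjustment per comparison. Fold changes are log2 with SE, of the group named first over the other, and CPM uses TMM-scaled totals. Alternatives were other scalings and filters, DESeq2 1.42.0, only the groups compared, a replicate block and each library left out. Shared sequence was checked with blastn 2.17.0+ on GENCODE M21. Promoter windows came from RefSeq on GRCm38.p6.

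The 7 members and the pathway lists were chosen with earlier results of these data known. Named genes were the 7 members, Tnfrsf9, Adam17, up to 4 called genes per list and comparison by smallest adjusted p, and the genes most like Tnf. Tnfaip3, Cyld, Zfp36, Hnrnpd and Zc3h12a were also given for high glucose, and single marker genes, after their values were seen. Some named items are not reported here.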

Additional observations from a re-analysis of the deposited data

Results flagged for a closer look

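The effects of the 2 sugars under LPS differed for Tnfaip2 and Tnfaip8 in edgeR's direct test of high fructose against high glucose. Tnfaip2 was 0.25 higher on the log2 scale with fructose than with glucose (adjusted p = 0.00574), and each of its 3 high-fructose libraries lay above each high-glucose library. The call held under each of the 14 alternatives run. Tnfaip8 was 0.236 higher with fructose (adjusted p = 0.0301), also with no overlap, but the call was lost under 5 of the alternatives. No cause was tested for either gene.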

How the results depend on the processing

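Over the alternatives run, the LPS calls of Tnf, Tnfrsf1b, Tnfaip2 and Tnfaip8 and the lower Tnf level with either sugar all stayed called in the same direction. The LPS comparison called 1941 genes higher and 1736 lower, against 1622 and 2292 under upper-quartile scaling. With library totals alone it called 1412 higher and 2951 lower. High glucose called 199 genes, against 427 with no filter, 391 with the replicate block, 329 with DESeq2 and 67 to 177 with a library left out. High fructose against high glucose called 475 genes, against 735 with the replicate block and 247 with only the 2 groups. For that comparison 2 members were called, 1 with only the 2 groups and 1 to 2 with a library left out. With high glucose or high fructose 2 to 3 members were called with a library left out.

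The labels give the replicate numbers no meaning. Deviations of same-numbered libraries had correlations of -0.194 to 0.243, with 4 of 18 pairs over 0.1, beside 5 of 36 pairs with other numbers. The share of mitochondrial counts was lowest in replicate 1 of each group (0.518 to 0.618%, against 0.689 to 0.788% in the other libraries). The numbers were not taken to pair the libraries, and whether they mark a shared day or batch was not tested. The replicate block called 4149 genes for LPS and 847 for high fructose. Of the members it added Tnfaip6 with high glucose (adjusted p = 0.0478).

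Some uncalled differences changed sign. With a library left out, Tnfaip6 with LPS ran between -0.404 and 0.0797, positive only without control replicate 2. Tnfsf9 with high glucose was -0.0831 without LPS replicate 2 and -0.202 without high-glucose replicate 1, in a range up to 0.242. With high fructose Tnfsf9 was -0.000786 with library totals alone, -0.177 without LPS replicate 2 and -0.158 without high-fructose replicate 3, in a range up to 0.143, and between the sugars it ran between -0.257 and 0.207, positive only without high-glucose replicate 1. Tnfrsf1a between the sugars was -0.0295 without high-glucose replicate 3 and -0.00273 without high-fructose replicate 2, in a range up to 0.0771. Adam17 with high glucose was 0.00265 with upper-quartile factors, 0.0268 without LPS replicate 2 and 0.0297 without high-glucose replicate 1, in a range down to -0.0288. Tnfrsf9 with high fructose ran between -0.0544 and 0.212, negative only without high-fructose replicate 3. Except where fewer libraries or another filter make the difference by construction, the cause was not tested. Depth limits Tnfaip6 (13 to 67 counts) and Tnfsf9 (95 to 189 counts). A strict filter removes Tnfaip6, so it has no value there. With high glucose DESeq2 gave Tnfaip6 no adjusted p.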

Other observations

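Genes of the TNF families that neighbour the members did not all share their pattern. Lta, 1.16 kb from Tnf, had 3 to 16 counts per library and Ltb, 3.06 kb away, had 0 to 8, beside 245 to 3904 counts for Tnf. Lta differed by -0.04 with LPS (adjusted p = 0.97 in edgeR). Ltbr, which encodes the lymphotoxin beta receptor and lies 35.5 kb from Tnfrsf1a, differed by 0.01 with LPS (adjusted p = 0.907). Tnfrsf8, 20.3 kb from Tnfrsf1b, rose with LPS by 1.57 (adjusted p = 0.000684) on 10 to 61 counts. Near Tnfsf9, Cd70 at 38.2 kb had no count in any library, while Tnfsf14 at 81.7 kb had 11 to 62. The neighbours were picked as TNF family genes, and shared control of neighbouring genes was not tested.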
